A study of Mus musculus with 3 samples.

Results

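The Ebf genes Ebf1, Ebf2, Ebf3 and Ebf4 encode the early B cell factors, a small family of transcription factors, and they are 4 of the 33696 genes in the deposited count matrices of mouse embryonic trunk cells. They were taken by gene symbol, and their counts were read in single cells with at least 4000 UMIs (unique molecular identifiers, 1 for each captured RNA molecule), sorted into cell classes by marker genes. The study made 1 single-cell library from each of 3 embryonic stages, namely E11.5, E12.5, E13.5, and its title concerns SOX9 and the origin of brown adipose depots. All 3 groups share their tissue and handling: trunk from C3 to T2 with the neural tube, thoracic organs and forelimbs taken off, TrypLE dissociation, 3 littermates pooled, and 3′ libraries of the 10x Genomics version 3.1 chemistry. Strain, genotype and sex are not given in the sources used here, and no treatment is named. Stage and library cannot be told apart, so no test was made between stages, and cells of 1 library are not replicates. Intervals below are exact 95% intervals of counting error only.

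EBF proteins carry a zinc-binding DNA-binding domain and a helix-loop-helix region through which they pair, with themselves or with each other. Ebf1 is best known for committing lymphoid progenitors to the B cell lineage and also acts in fat cells, Ebf2 marks and acts in brown adipose precursors, and Ebf1, Ebf2 and Ebf3 are switched on in newborn neurons of the spinal cord as they leave the ventricular zone. Zfp423 and Zfp521 encode zinc finger proteins that bind EBF proteins and change their activity.

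The members are close in coding sequence, which matters for whether a 3′ read can be assigned to 1 of them. The sequences below are the same 90-base stretch of the coding sequence of each member (GENCODE M21 transcripts, GRCm38, 5′ to 3′), shown because it is where the family is alike; capitals mark bases that differ from Ebf1.
Ebf1: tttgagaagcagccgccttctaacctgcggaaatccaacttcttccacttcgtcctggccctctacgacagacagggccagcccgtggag
Ebf2: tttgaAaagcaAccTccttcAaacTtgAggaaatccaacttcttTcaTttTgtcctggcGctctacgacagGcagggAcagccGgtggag
Ebf3: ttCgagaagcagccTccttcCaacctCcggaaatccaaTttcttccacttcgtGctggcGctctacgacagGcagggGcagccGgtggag
Ebf4: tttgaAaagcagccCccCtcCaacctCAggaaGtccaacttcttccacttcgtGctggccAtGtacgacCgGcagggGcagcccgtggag
Over this stretch Ebf2 differed from Ebf1 at 13 bases, Ebf3 at 10 and Ebf4 at 13, and 11, 10 and 10 of these fell on the third position of a codon. Even so, the longest run shared by the transcripts of any pair was 27 bases, between Ebf3 and Ebf4. Within the last 500 bases of the transcripts, where 3′ libraries take their reads, the longest shared run was 20 bases, between Ebf1 and Ebf3. The deposited counts come from GRCm39, so these runs describe a neighbouring annotation of the same genes.

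After removal of barcodes with over 10% mitochondrial UMIs and of called doublets, 6131, 6054 and 7318 cells remained at the 3 stages, with a median of 12334, 10950 and 10188 UMIs. Libraries shared 10 to 16 cell barcodes with each other. Xist UMIs were found in 65.3%, 26.7% and 90.4% of cells, so the mix of the sexes differed between libraries, and its part in the stage values was not tested. Each cell class is a range of a marker score, so its name stands for cells like that type. Mesenchyme cells had a median of 10 of 16 mesenchyme markers and 1 of 10 neuron markers, and neurons a median of 8 of 10 neuron markers and 0 mesenchyme markers. Mesenchyme held 2269, 2810 and 4363 cells at the 3 stages (387, 306 and 402 of them near the boundary of the class) and neurons 1203, 1378 and 471 (74, 30 and 15 near it). Median depth was 13150, 11685 and 9700 UMIs in mesenchyme and 9785, 8097 and 6147 in neurons, so shares of cells are given after each cell was thinned to 4000 UMIs, which left out none, with the unthinned share beside the main ones.

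Summed over all kept cells, Ebf1 had 66902 UMIs in 9169 cells, Ebf3 27565 in 8784 cells, Ebf2 20211 in 6389 cells and Ebf4 477 in 467 cells. UMIs count captured molecules, and these totals were not corrected for gene length, whose part in them was not tested. The largest count in a single cell was 427 for Ebf1, 72 for Ebf2, 51 for Ebf3 and 2 for Ebf4. Ebf4 was therefore scarce. In mesenchyme it measured 1.24, 2.65 and 2.59 CPM (UMIs per 1e6 UMIs of the class) at the 3 stages. Neurons had 2.88, 2.60 and 1.59 CPM of Ebf4, and erythroid cells 0, 0.95 and 0.16 CPM. Droplets without a cell had between 1.09 and 1.91 CPM. Free RNA was estimated at 8.19%, 13.3% and 10.7% of the UMIs in cells. That estimate set the Ebf1 to Ebf3 share of UMIs in macrophages, erythroid cells and epidermis against that of droplets without a cell. It thus assumes that these classes lack the genes and rests on the members themselves. The part of free RNA in the Ebf4 levels was not tested. The rest of this account is mainly about Ebf1, Ebf2 and Ebf3.

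Neurons and mesenchyme were the main carriers of the family. In neurons Ebf1 measured 1143 (1126 to 1161), 1142 (1124 to 1160) and 1215 CPM (1177 to 1254) at the 3 stages. In mesenchyme Ebf1 measured 158 (154 to 163), 210 (205 to 214) and 255 CPM (250.1 to 259) at the same stages. The neuronal level was thus the higher at each stage, and the mesenchymal level was the higher the later the stage. Ebf2, the member tied to brown fat, measured 95.8, 133 and 130.2 CPM in mesenchyme and 57.7, 157 and 251 CPM in neurons. Ebf2 changed its order, with mesenchyme above neurons at E11.5 and below them at the later pair of stages. Ebf3 measured 106, 157 and 127 CPM in mesenchyme and 198, 269 and 760.0 CPM in neurons, so its neuronal level at E13.5 stood apart from its other 5 values.

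**Figure D1:**
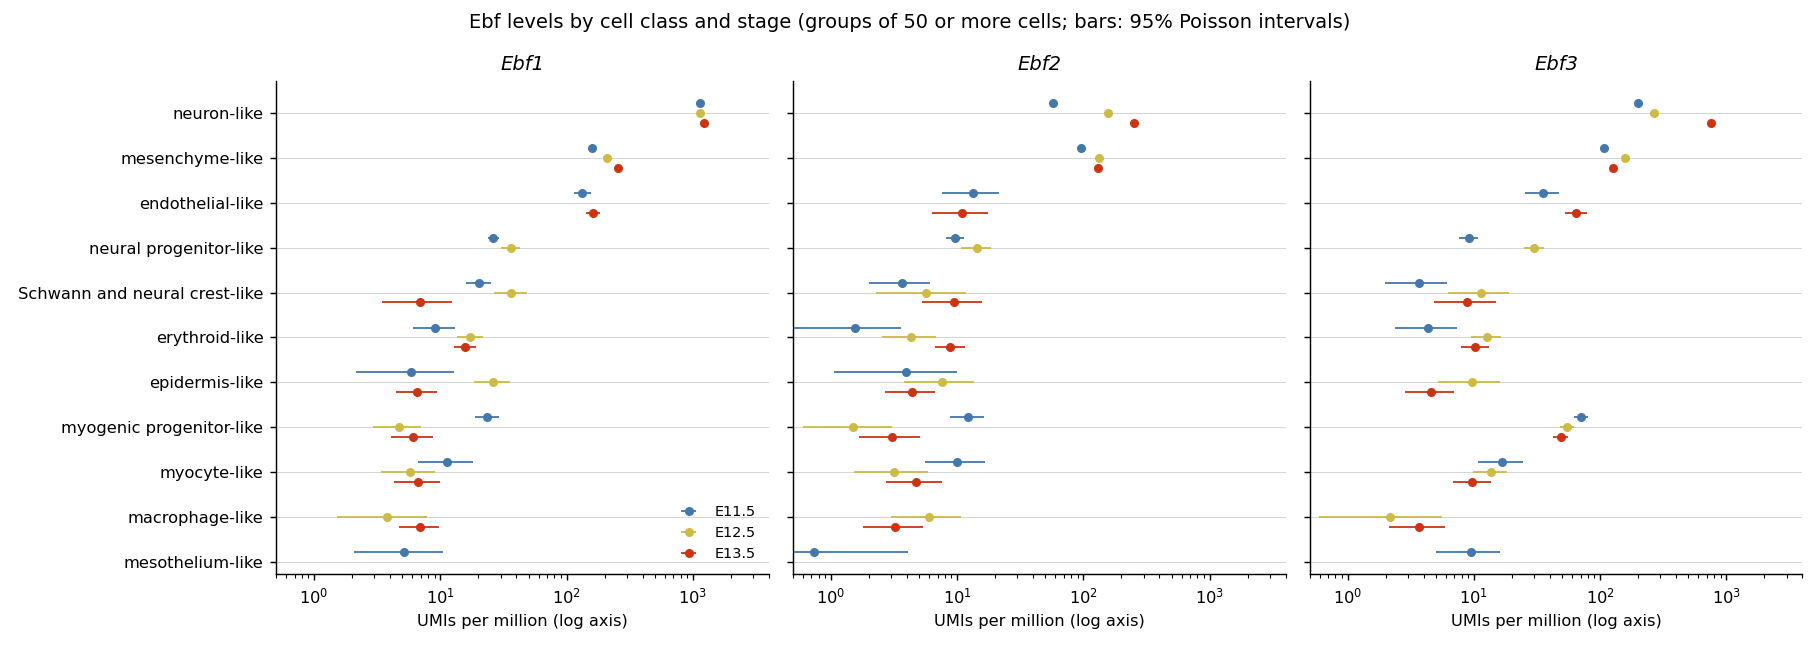
Level of Ebf1, Ebf2 and Ebf3 in CPM (log axis) by cell class and stage, for groups of at least 50 cells, with exact 95% Poisson intervals that cover counting error only. Neurons lead for Ebf1 at all 3 stages, at 1143, 1142 and 1215 CPM, while mesenchyme leads for Ebf2 at E11.5 only.

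Shares of cells told the same order. With 4000 UMIs per cell, Ebf1 was found in 71.8%, 72.5% and 83.0% of neurons (78.9%, 78.9% and 85.4% unthinned) and in 31.3%, 36.2% and 45.1% of mesenchyme cells (47.3%, 53.5% and 60.3%). Ebf2 was found in 15.4%, 34.2% and 53.3% of neurons (26.4%, 43.8% and 60.3%) and in 22.7%, 31.5% and 31.4% of mesenchyme cells (40.6%, 48.5% and 44.9%). Ebf3 was found in 47.0%, 49.9% and 78.8% of neurons (65.4%, 63.1% and 83.4%) and in 28.0%, 36.2% and 33.2% of mesenchyme cells (54.3%, 58.1% and 51.1%). Macrophages, erythroid cells and epidermis should lack these genes. In macrophages, with a median of 20565, 18077 and 12599 UMIs, Ebf1 was found in 2.56%, 1.06% and 1.77% of thinned cells, and in erythroid cells, with 25616, 17803 and 11109 UMIs, in 1.64%, 4.94% and 3.41%. Among all classes of all libraries without the genes, the highest background share was 5.26%, for Ebf1 in epidermis at E12.5, so the shares in neurons and mesenchyme lay well above background.

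Within a library, stage, dissection and chemistry are shared, so neurons can be set against mesenchyme directly. Ebf1 was higher in neurons than in mesenchyme by a log2 ratio of 2.85, 2.45 and 2.25 at the 3 stages. Ebf3 was higher in neurons by 0.90, 0.78 and 2.59. For Ebf2 the log2 ratio was -0.73, 0.24 and 0.95, and it lay inside 2-fold at each stage. Counting a difference of 2-fold or more, 2 of the 4 members were higher in neurons at E11.5 (Ebf1, and Ebf4 with a log2 ratio of 1.21 from few UMIs, interval 0.55 to 1.88), where 20.5% of all genes with at least 20 UMIs were higher. At E12.5 Ebf1 passed, against 19.5% of genes, and at E13.5 Ebf1 and Ebf3 passed, against 20.2%. With a mitochondrial maximum of 5%, Ebf3 at E12.5 (1.02) and Ebf2 at E13.5 (1.39) also passed, so these calls depend on that setting.

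Among the kept cells, Ebf1 UMIs lay mainly in neurons at the earlier stages. They lay mainly in mesenchyme at E13.5, when neurons were a small part of the cells. Neurons held 68.0%, 60.5% and 20.8% of all Ebf1 UMIs, while their share of cells was 19.6%, 22.8% and 6.44%. The neural tube was taken off at dissection, so both shares depend on how much neural tissue each library kept, which was not measured. Mesenchyme held 21.3%, 30.8% and 65.4% of Ebf1 UMIs, while its share of cells was 37.0%, 46.4% and 59.6%. For Ebf2 mesenchyme held the largest share of UMIs throughout, with 64.7%, 63.4% and 78.2%, though its CPM was below that of neurons at E12.5 and E13.5. For Ebf3 it held 45.0%, 54.3% and 62.8%, the last close to its share of cells. Neurons expressed the family as mostly Ebf1: of the family's UMIs in neurons, Ebf1 made up 81.5%, 72.7% and 54.5%, and Ebf3 14.1%, 17.1% and 34.1%. In mesenchyme the mix was more even, with Ebf1 at 43.8%, 41.7% and 49.5% and Ebf2 at 26.5%, 26.5% and 25.3%.

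The neural classes were then ordered from progenitors to neurons: neural progenitors (Sox2, Hes5, Pax6 and other markers), cells with scores between progenitor and neuron, neurons with at least 3 of 10 proneural markers such as Neurog2, Nhlh1 and Neurod4, and neurons with fewer. These proneural genes drive cells out of division into neuronal fate, so the order approximates the course from dividing cell to neuron, with cell numbers of 1176, 129, 592 and 611 at E11.5 and 419, 61, 371 and 1007 at E12.5. Ebf1 measured 26.3, 840.2, 1406 and 833 CPM along this order at E11.5 and 36.1, 366, 1280.3 and 1079 CPM at E12.5. Ebf1 was thus low in progenitors, though above its 5.89 CPM (2.16 to 12.8) in epidermis and 9.02 CPM in erythroid cells at E11.5, and highest in neurons that still had proneural transcripts. Ebf2 measured 9.68, 191, 98.7 and 9.36 CPM at E11.5, so its highest level came earlier, in the cells between progenitor and neuron, and its level in neurons with fewer proneural markers was as low as in progenitors. At E12.5 Ebf2 measured 14.3, 239, 278 and 102 CPM. Ebf3 measured 9.12, 222, 212 and 182 CPM at E11.5 and 30.0, 253, 283 and 263 CPM at E12.5, and held its level into the neurons with fewer proneural markers.

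**Figure D2:**
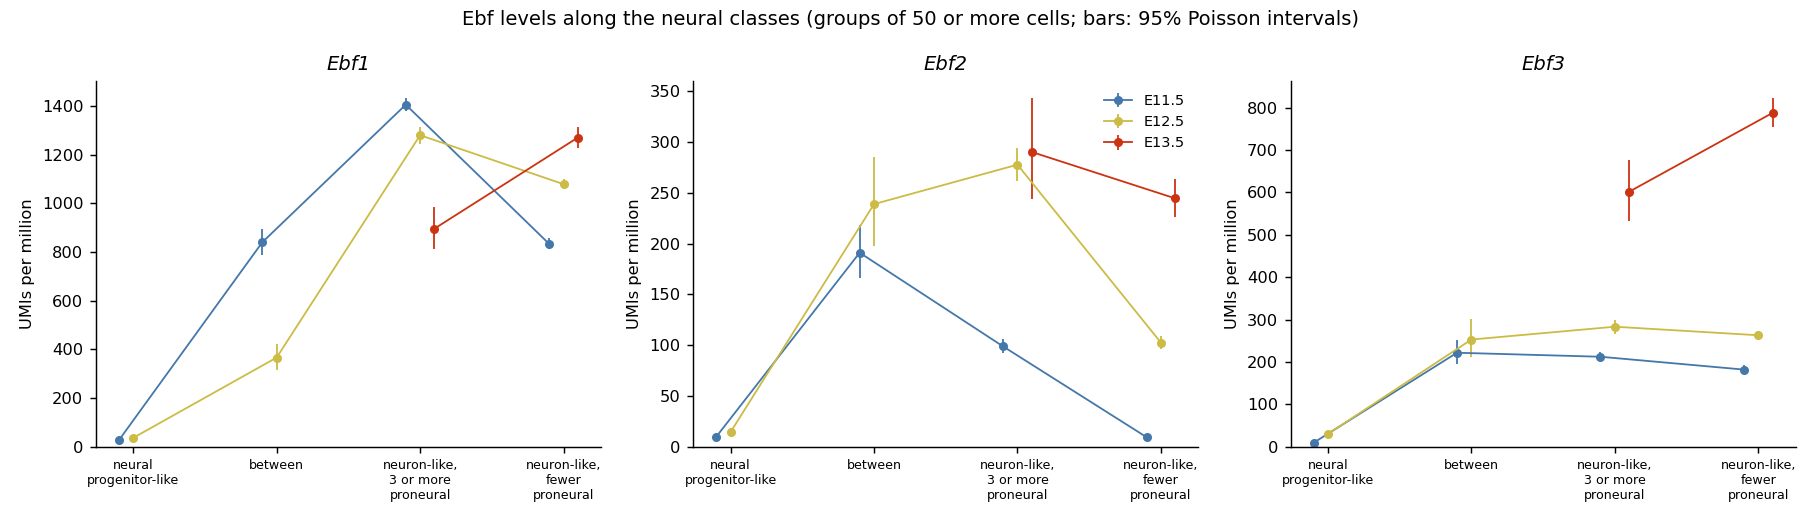
Level of Ebf1, Ebf2 and Ebf3 in UMIs per 1e6 (CPM, linear axis from 0 with its own range for each gene, exact 95% Poisson intervals) from neural progenitors to neurons with fewer than 3 proneural markers, with a line per stage for groups of at least 50 cells. At E11.5 Ebf2 falls from 191 to 9.36 CPM along the last steps while Ebf3 goes from 222 to 182 CPM.

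The contrast between the 2 sets of neurons set Ebf2 apart from the other members at E11.5. Between neurons with fewer proneural markers and those with at least 3, the log2 ratio of Ebf2 was -3.40 (interval -3.80 to -3.02), -1.44 and -0.25 (-0.52 to 0.03) at the 3 stages. Ebf1 had -0.75, -0.25 and 0.50, and Ebf3 -0.22, -0.11 and 0.39. At E11.5, 1 of the 4 members, Ebf2, was lower by 2-fold or more, against 5.75% of all genes, and at E12.5 again Ebf2, against 5.69%. At E13.5 no member was, against 4.27%, and the sets then held 68 and 403 cells. Median depth was 9966 and 9652 UMIs in the neurons with at least 3 and with fewer proneural markers at E11.5, 8614 and 8015 at E12.5, and 5941 and 6237 at E13.5.

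The proneural genes that split the neurons can also be read one at a time, which describes the same contrast in single cells and adds no separate support. In E11.5 neurons Nhlh1, a bHLH factor of newborn neurons, was found in 45.4% (38.1 to 52.9) of cells with an Ebf2 UMI and in 11.49% (9.598 to 13.6) of cells without one. Neurod4, a proneural factor, was found in 31.9% and 3.63%, and Neurog2 in 29.7% and 10.1%. Onecut2, a Onecut transcription factor that is no marker of the split, went the other way, with 17.3% of Ebf2-positive and 38.1% of Ebf2-negative cells. In E12.5 neurons Nhlh1 was found in 32.9% (28.7 to 37.4) of cells with Ebf2 and 6.06% (4.60 to 7.82) of cells without, while Onecut2 was found in 13.0% and 12.0%. At E13.5 Nhlh1 was found in 11.6% (7.88 to 16.2) and 5.45% (2.85 to 9.33), so the intervals overlapped. The pairing with proneural genes was also present among the few E11.5 neural progenitors with Ebf2: Neurog2 was found in 61.5% (44.6 to 76.6) of progenitors with an Ebf2 UMI and in 10.5% (8.75 to 12.4) of those without.

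Between stages, the levels of the 3 members in the neuron class as a whole moved at different steps. From E11.5 to E12.5, Ebf2 was higher by a log2 ratio of 1.45 (1.33 to 1.56) in neurons and Ebf3 by 0.44 (0.37 to 0.51), while Ebf1 had -0.00 (-0.03 to 0.03). Within neurons with fewer proneural markers the Ebf2 ratio was 3.45 (3.08 to 3.85), from 9.36 to 102 CPM. In that step 1 of the 4 members, Ebf2, was higher by 2-fold or more, against 6.25% of genes, and 0 were lower, against 4.96%. From E12.5 to E13.5, Ebf3 was higher by 1.497 (1.42 to 1.57), Ebf2 by 0.68 (0.56 to 0.80) and Ebf1 by 0.09 (0.04 to 0.14). In that step Ebf3 alone was higher by 2-fold or more, against 4.13% of genes, and 0 members were lower, against 5.85%. The makeup of the neuron class differed between stages. Of the subclasses described below, dI1 neurons numbered 160, 25 and 1, and motor neurons 73, 10 and 0. The dI5 and dILB neurons numbered 31, 195 and 74. The neuron class at E13.5 was also the shallowest and had the highest median mitochondrial share, 5.55% against 4.13% at E11.5 and 4.50% at E12.5. The part of these in the stage values was not tested directly, and with a mitochondrial maximum of 5%, which kept 924 and 156 neurons at E12.5 and E13.5, the Ebf3 ratio was 1.27 and the Ebf1 ratio -0.33.

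Neuron subclasses differed in which members they carried. dI1 neurons, dorsal commissural cells marked by Barhl and Lhx2 genes, had 1982 CPM of Ebf1 at E11.5 with 47.2 CPM of Ebf2 and 404 CPM of Ebf3 (160 cells). Sensory neurons, marked by Pou4f1 and Isl1, had 2028 CPM of Ebf1, 118 of Ebf2 and 237 of Ebf3 (72 cells, 42 near the subclass boundary). dI5 and dILB neurons, dorsal excitatory cells marked by Tlx3 and Lmx1b, had the fullest mix: at E12.5 (195 cells) Ebf1, Ebf2 and Ebf3 measured 1942, 367 and 640.0 CPM, and at E13.5 (74 cells) 1873, 388 and 928 CPM. Low levels were found in V1 neurons (marked by En1), with 182 CPM of Ebf1 at E11.5, and in motor neurons, with 461 CPM. Of the 32 V1 neurons 26 lay near the subclass boundary, and of the 73 motor neurons 17 did. V2b neurons, marked by Gata2 and Gata3, had 560.2 CPM of Ebf1 but 6.33 CPM of Ebf2 and 12.7 CPM of Ebf3, close to the levels of the classes without the genes. These values come from few UMIs in 36 cells, of which 18 lay near the subclass boundary. Sympathetic neurons at E13.5 had 889.8 CPM of Ebf1, 26.0 CPM of Ebf3 and 0 Ebf2 UMIs in 24 cells, 8 of them near the boundary.

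**Figure D3:**
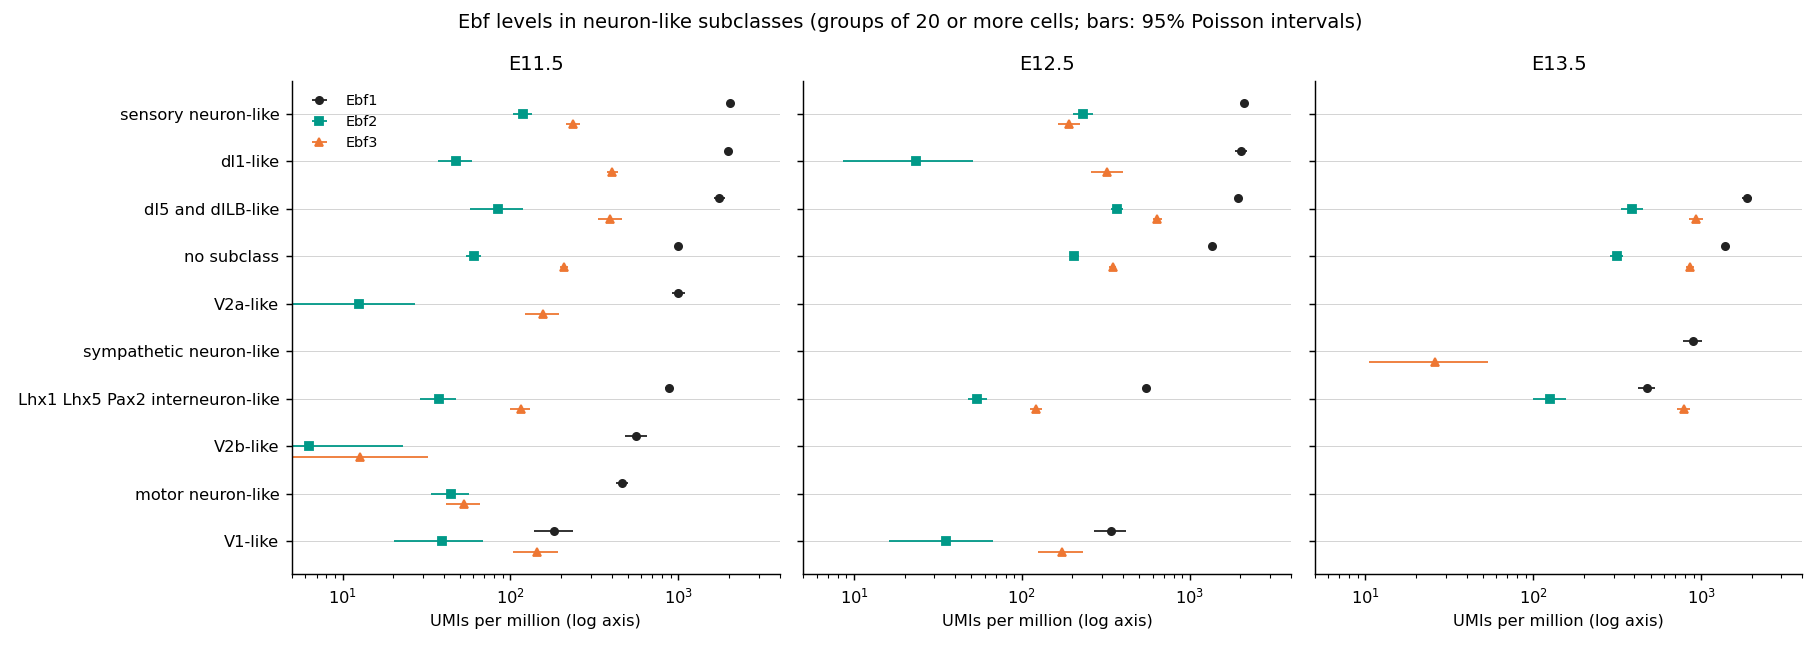
Level of Ebf1, Ebf2 and Ebf3 in CPM (log axis, exact 95% Poisson intervals) in neuron subclasses of at least 20 cells by stage; a level of 0 is not drawn. The Lhx1, Lhx5 and Pax2 interneurons go from 121 to 786 CPM of Ebf3 between E12.5 and E13.5, while the dI5 and dILB neurons go from 640.0 to 928 CPM.

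The interneurons marked by Lhx1, Lhx5 and Pax2, mostly inhibitory cells, shifted more in Ebf3 between the last stages than the neuron class as a whole. Their Ebf3 measured 115 (99.7 to 131), 121 (111 to 132) and 786 CPM (719 to 858) at the 3 stages in 207, 532 and 101 cells, of which 17, 30 and 32 lay near the boundary of the subclass. The share of these cells with Ebf3 was 32.4%, 33.5% and 81.2% thinned (47.3%, 46.1% and 85.1% unthinned). Their Ebf2 measured 37.3, 54.3 and 125 CPM, and their Ebf1 876, 550.4 and 473 CPM. From E12.5 to E13.5 the log2 ratio was 2.70 (2.52 to 2.88) for Ebf3, 1.20 (0.82 to 1.57) for Ebf2 and -0.22 for Ebf1. Hence 2 of the 3 members with at least 20 UMIs were higher by 2-fold or more, against 3.24% of all genes in that subclass. In the dI5 and dILB neurons over the same step the log2 ratios were 0.54 for Ebf3, 0.08 for Ebf2 and -0.05 for Ebf1. Which interneurons make up the subclass at each stage was not resolved by these markers, and its part in the shift was not tested.

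In mesenchyme the members moved together at the first step and apart at the second. From E11.5 to E12.5 the log2 ratio was 0.40 (0.35 to 0.46) for Ebf1, 0.48 (0.41 to 0.54) for Ebf2 and 0.56 (0.50 to 0.62) for Ebf3, beside a median of 0.15 over all genes. None of these 3 passed 2-fold; Ebf4 did, at 1.09 (0.55 to 1.66) from few UMIs, so 1 of 4 members was higher, against 13.1% of genes, and 0 were lower, against 2.16%. From E12.5 to E13.5 the log2 ratio was 0.28 for Ebf1, -0.03 (-0.09 to 0.02) for Ebf2 and -0.31 (-0.36 to -0.25) for Ebf3. No member passed 2-fold in that step, against 4.24% of genes higher and 4.99% lower. The makeup of mesenchyme differed between stages: sclerotome-like cells numbered 173, 48 and 20, dermal 131, 303 and 797, and meningeal 470, 240 and 102.

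Mesenchyme subclasses spread over a wider range than the stages, and many of their cells lay near a subclass boundary, such as 277 of the 797 dermal and 111 of the 223 brown adipose precursor cells at E13.5. Sclerotome cells, marked by Pax1 and Pax9 and forming vertebrae and ribs, had 239 CPM of Ebf1, 188 of Ebf2 and 106 of Ebf3 at E11.5. Chondrogenic cells, marked by Col2a1, kept Ebf1 with little of the others: 308, 55.3 and 69.8 CPM at E12.5 and 388, 72.8 and 105 CPM at E13.5. Meningeal cells, marked by Foxc1 and Aldh1a2, were richest in Ebf1 at E11.5, with 386 CPM, and had 268 and 161 CPM later. Lateral plate cells, marked by Tbx5, Hand2 and Alx1, had 46.9, 157 and 242 CPM of Ebf1, but 105 of their 213 cells, 76 of 168 and 44 of 60 lay near the boundary of the subclass. Tendon cells had 269, 216 and 196 CPM of Ebf1, Ebf2 and Ebf3 at E12.5 and 233, 161 and 127 CPM at E13.5.

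**Figure D4:**
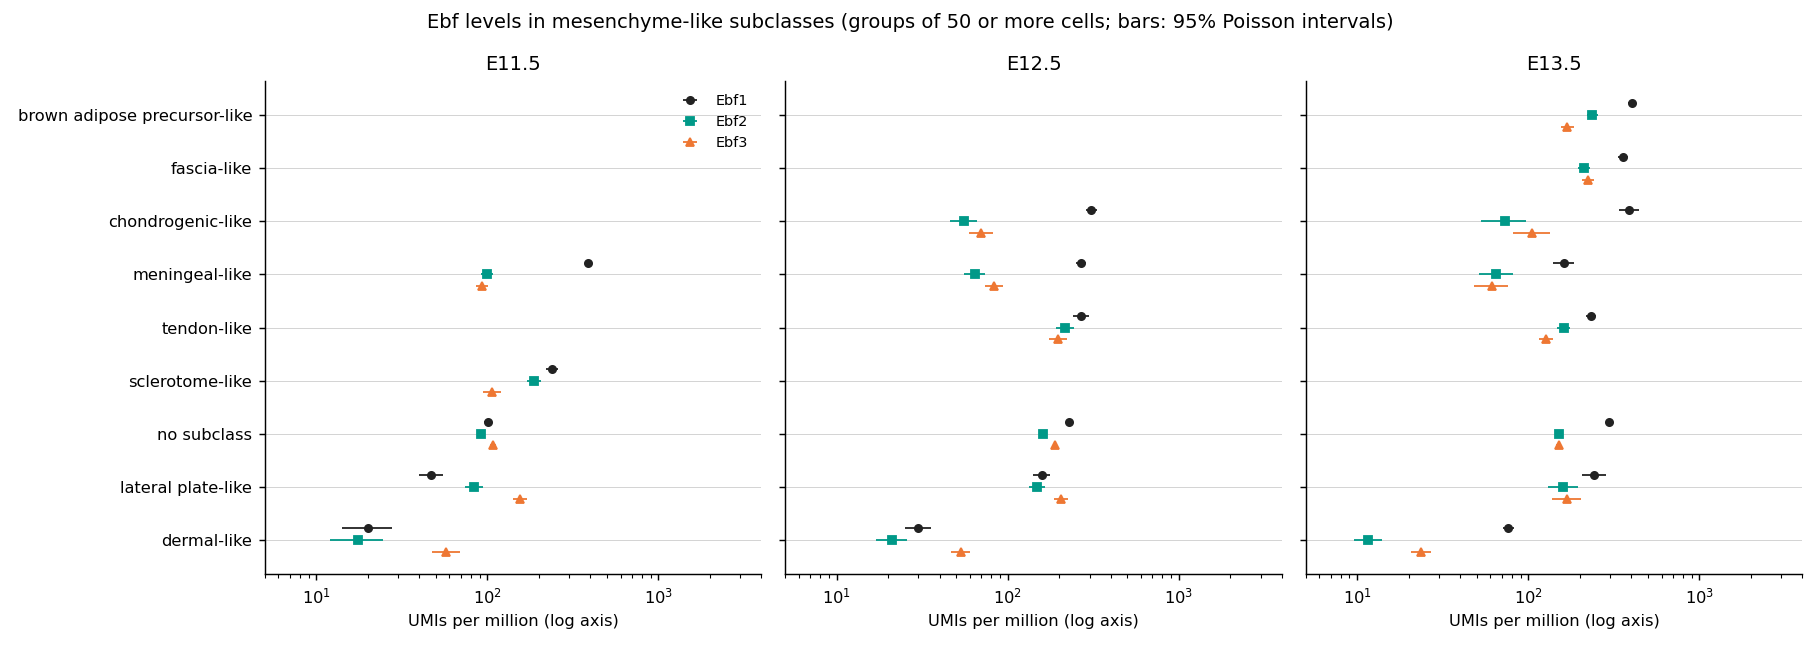
Level of Ebf1, Ebf2 and Ebf3 in CPM (log axis, exact 95% Poisson intervals) in mesenchyme subclasses of at least 50 cells by stage. Dermal cells sit lowest for Ebf2 at 17.4, 21.0 and 11.6 CPM, and brown adipose precursor and fascia cells at E13.5 sit among the highest for all 3 members.

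The brown adipose precursor subclass, set by Pparg, Cebpa, Gata6 and other markers that do not include an Ebf gene, had 403 CPM (380 to 427) of Ebf1, 236 (219 to 255) of Ebf2 and 169 (154 to 185) of Ebf3 at E13.5 in 223 cells. Against mesenchyme cells of no subclass in the same library, which had 295, 151 and 150.2 CPM, the log2 ratio was 0.45, 0.65 and 0.17. Fascia cells, marked by Clec3b and Mfap5, had 357, 212 and 223 CPM in 262 cells, with log2 ratios of 0.27, 0.49 and 0.57. The differences of both subclasses from the rest were within 2-fold for each of these members. In the 43 precursor cells at E12.5 Ebf2 measured 292 CPM (249 to 341) and Ebf1 212 CPM (176 to 254), so the intervals of these members overlapped at that stage, while at E13.5 Ebf1 lay above Ebf2.

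Dermal cells, marked by Dpt, Crabp1, Twist2 and WNT target genes, had the lowest levels of Ebf1, Ebf2 and Ebf3 among the mesenchyme subclasses with at least 50 cells. Their Ebf1 measured 20.1, 29.9 and 76.4 CPM, their Ebf2 17.4, 21.0 and 11.6 CPM, and their Ebf3 57.6, 52.9 and 23.7 CPM. Against mesenchyme of no subclass the log2 ratio at E11.5 was -2.33 for Ebf1, -2.40 for Ebf2 and -0.91 for Ebf3. It was -2.92, -2.93 and -1.84 at E12.5, and -1.95, -3.70 and -2.66 at E13.5. With Ebf4, which had 1 and 5 dermal UMIs at the first stages and log2 ratios of -1.38, -1.33 and 0.53, this made 3 of 4 members lower by 2-fold or more at E11.5, against 8.40% of genes, 4 of 4 at E12.5, against 10.6%, and 3 of 4 at E13.5, against 11.0%. From E12.5 to E13.5 dermal Ebf1 was higher by 1.35 on the log2 scale while Ebf2 had -0.86 and Ebf3 -1.16. With free RNA subtracted the E13.5 ratio of Ebf2 was -4.26, and with called doublets kept it was -3.36.

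Outside mesenchyme and neurons each member had its own further classes. Myogenic progenitors, marked by Pax7 and Myf5, carried Ebf3 almost alone: 70.5 (62.0 to 79.8), 54.5 and 48.8 CPM of Ebf3 in 174, 203 and 269 cells, which was 66.4%, 89.5% and 84.2% of their Ebf UMIs. Their Ebf2 measured 12.2, 1.49 and 3.05 CPM, no more than in macrophages at E12.5 and E13.5. Mesenchyme exceeded myogenic progenitors at E12.5 by a log2 ratio of 5.48 for Ebf1, 6.48 for Ebf2 and 1.52 for Ebf3. Endothelial cells carried Ebf1, with 133, 189 and 163 CPM, and Ebf3 at 35.0, 56.8 and 64.3 CPM. Mural cells, the pericytes and smooth muscle of vessels, had 521, 727 and 802 CPM of Ebf1 in only 16, 21 and 28 cells, between the levels of mesenchyme and neurons. In the order of classes with at least 50 cells at E11.5, Ebf1 in mesenchyme and in endothelial cells had overlapping intervals, and the classes below endothelial cells overlapped from each to the next.

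Co-detection in single cells was read after thinning, beside the product of the 2 genes' shares, which is the share with both genes if detection of each were unrelated. In mesenchyme Ebf2 and Ebf3 were found together in 10.2%, 18.3% and 17.1% of cells (232, 514 and 745 cells), 1.61, 1.61 and 1.64 times the product of 6.34%, 11.4% and 10.4%. Ebf3 was found in 45.1%, 58.1% and 54.5% of mesenchyme cells with Ebf2 and in 23.0%, 26.1% and 23.4% of those without. With the product taken within each subclass, and within cells of no subclass as a group, the pooled ratio was 1.57, 1.42 and 1.37. Cells of no subclass were 54.1%, 60.6% and 57.6% of mesenchyme. Single subclasses differed: the ratio was 1.16 in sclerotome at E11.5, and 1.03, 1.13 and 1.15 in fascia, brown adipose precursors and tendon at E13.5. It was 2.00 and 3.31 in meningeal cells at E11.5 and E12.5, and 5.53 in dermal cells at E13.5, from 8 cells with both genes. Over all mesenchyme Ebf1 with Ebf2 had a ratio of 1.18, 1.13 and 1.28, and Ebf1 with Ebf3 0.94, 1.07 and 1.31. At E11.5 Ebf1 and Ebf3 in mesenchyme were thus no more often together than their shares give.

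In neurons Ebf1 and Ebf3 shared 38.5%, 43.5% and 69.9% of cells, with ratios of 1.14, 1.20 and 1.07, and Ebf1 and Ebf2 shared 13.8%, 31.1% and 49.5%, with ratios of 1.25, 1.25 and 1.12. Ebf2 and Ebf3 shared 10.1%, 24.6% and 48.2%, with ratios of 1.39, 1.44 and 1.15. Ratios near 1 have little room to rise where a gene is in most cells, as Ebf1 is here. All of Ebf1, Ebf2 and Ebf3 were found in 9.23%, 23.0% and 45.4% of neurons and in 3.35%, 7.86% and 10.3% of mesenchyme cells. In the dI5 and dILB neurons the share with all of them was 61.0% and 66.2% at the later pair of stages, where the ratio of Ebf2 with Ebf3 was 0.993 and 0.996. At least 1 of the 3 was found in 81.1%, 80.3% and 93.0% of neurons and in 58.5%, 66.5% and 65.2% of mesenchyme cells. None was found in 84.0%, 78.6% and 79.2% of dermal cells, while brown adipose precursors and fascia at E13.5 had all of them in 22.9% and 18.3% of cells.

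**Figure D5:**
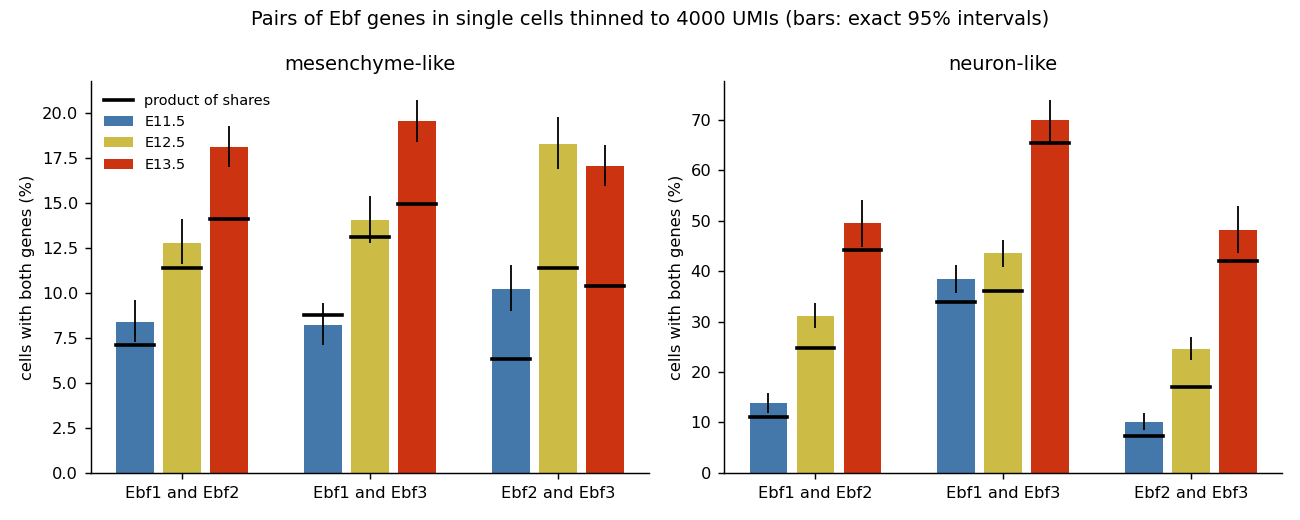
Bars give the percentage of mesenchyme (left) and neuron (right) cells with both genes of a pair at 4000 UMIs per cell, by stage, with exact 95% binomial intervals, and the black lines give the product of the genes' shares. For Ebf2 with Ebf3 in mesenchyme the bars of 10.2%, 18.3% and 17.1% stand above lines at 6.34%, 11.4% and 10.4%.

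Genes tied to brown fat and to the study's question were read in the same cells. Pparg, the master regulator of fat cell formation, was found at E13.5 in 4.47% of mesenchyme cells with Ebf1 and 1.29% without, in 4.53% with Ebf2 and 1.90% without, and in 4.01% with Ebf3 and 2.09% without. Sox9, a regulator of cartilage precursors, was found in 57.5% of E11.5 mesenchyme cells with Ebf1 and 31.8% without, in 32.2% and 22.4% at E12.5, and in 25.7% and 13.4% at E13.5. Ebf2 and Sox9 were together 0.95, 1.01 and 1.44 times as often as the product of their shares, so above it at E13.5 and near it before. Gata6, a factor of brown fat precursors and of lateral plate derivatives, was found with Ebf2 0.46, 0.78 and 0.80 times as often as the product.

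Of 8 genes for EBF partner proteins and chromatin cofactors, Zfp423 measured 30.4, 36.3 and 52.3 CPM in neurons and 25.2, 22.6 and 16.3 CPM in mesenchyme. Against mesenchyme, 1 of the 8 was higher in neurons by 2-fold or more at E11.5 (Dpf3) and 1 lower (Smarcd3), 2 were higher at E12.5 (Dpf3 and Smarca4) and 3 at E13.5 (Zfp423, Dpf3 and Smarca4), with none lower. The shares of all genes higher in neurons were 20.5%, 19.5% and 20.2%, so the counts of the list lay near that background. Their median log2 ratio was 0.42, 0.60 and 0.67, beside 0.02, -0.00 and 0.07 over all genes. In E12.5 neurons Zfp423 was found in 21.9% (18.2 to 25.9) of cells with Ebf2 and 9.81% (7.95 to 11.9) of cells without.

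Of 15 brown adipose genes, 11 had at least 20 UMIs in mesenchyme at each step. From E11.5 to E12.5, 5 of the 11 were higher by 2-fold or more (Pparg, Cebpa, Cebpb, Tbx15 and Ppargc1a) and from E12.5 to E13.5 again 5 (Pparg, Cebpa, Cebpb, Cebpd and Fabp4), with none lower. Over all genes 13.1% and 4.24% were higher at these steps, and the list's median log2 ratio was 0.83 and 0.84 beside 0.15 and -0.09. Cebpb went from 7.84 to 19.6 and 70.5 CPM and Pparg from 0.06 to 0.50 and 9.06 CPM in mesenchyme. Ebf2, at 95.8, 133 and 130.2 CPM, was thus already present when Pparg was close to 0. Of 8 genes for bone formation, 4 were lower by 2-fold or more in mesenchyme from E12.5 to E13.5 (Runx2, Sp7, Ibsp and Foxc1) and none higher, against 4.99% of all genes lower, with a median of -1.01 beside -0.09 over all genes.

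All 16 genes of a neuronal differentiation list were higher in neurons than in mesenchyme at E11.5, against 20.5% of all genes, with a median log2 ratio of 7.43. The list holds markers that set the neuron class, such as Tubb3, Stmn2 and Dcx, so this count partly restates how the class was chosen. In neurons 5 of the 16 were lower by 2-fold or more from E11.5 to E12.5 (Neurog1, Neurod4, Nefm, Onecut1 and Onecut2) and 5 from E12.5 to E13.5 (Neurog1, Neurog2, Neurod4, Nhlh1 and Onecut1), with none higher at either step, against 4.96% and 5.85% of all genes lower. The list also holds proneural genes, such as Neurog2 and Nhlh1, that split the neurons above. Ebf2 and Ebf3 thus went up over the stages at which several proneural genes went down. Of 8 B cell genes, 7 were in the files, and Pax5 was the one above 1 CPM in neurons, with 19.4, 17.5 and 2.23 CPM. Of 6 olfactory genes Lhx2 was the one higher in neurons than in mesenchyme by 2-fold or more, and it is also a marker of the dI1 subclass.

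Across the 52 class-by-stage groups with at least 50 cells, the level of the members followed one another: the Pearson correlation of log2(CPM + 10) was 0.84 for Ebf1 with Ebf2, 0.87 for Ebf1 with Ebf3 and 0.89 for Ebf2 with Ebf3, and 0.28 to 0.39 for Ebf4 with the others. These groups share libraries and some of them share cells, so the values describe the groups only. Among 7232 genes, the ones closest to Ebf1 were Cpe (0.88), Ebf3, D430019H16Rik (0.87), Fam171b (0.86) and Tram1l1 (0.85). Those closest to Ebf2 were Ebf3, Ebf1, Tshz2 (0.82), Tmeff2 (0.81) and Aff3 (0.81). Those closest to Ebf3 were Ebf2, Zfp423 (0.87), Ebf1, Tshz3 (0.86) and Prr7 (0.84). For Ebf4, whose counts are few, the highest value was 0.68, with Ephb2.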

How the data were processed

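The 3 libraries were deposited by the authors as raw counts of UMIs per gene and barcode, with no normalization in the values. Per the submitters' processing notes, reads were processed with Cell Ranger 8.0.1 on GRCm39. Genes were matched by symbol. Barcodes with at least 4000 UMIs and at most 10% mitochondrial UMIs were kept, and doublets called by scrublet (scanpy 1.11.5, Python 3.11.15) in each library were removed (182, 121 and 199 cells). A cell was given the class with the highest mean marker score if at least 3 of its markers were present and the score was 1.5 times the second. This scoring rule was set after the data were seen, and the members and gene lists were chosen with earlier results of these data known. Levels are CPM of the counts summed over a class. Exact 95% intervals (scipy 1.17.1) are Poisson for levels, Clopper-Pearson for shares and conditional binomial for log2 ratios. A ratio of 2-fold or more among genes with at least 20 UMIs counted as a difference. Cells were thinned to 4000 UMIs for shares. Genes named for likeness were the 5 with the highest correlation, and those named from a list had passed 2-fold or a high CPM, the former chosen after their values were seen. The scripts were tested on simulated data. Library totals were 103383215, 94155624 and 113402193 UMIs. Each stage is 1 library, so no p-value was computed.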

Additional observations from a re-analysis of the deposited data

Results flagged for a closer look

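Each of these differences was seen without a test, since each stage is 1 library. The log2 ratio of Ebf1 between neurons with fewer and with at least 3 proneural markers had opposite signs at the earlier and the last stage, with -0.75, -0.25 and 0.50 in order of stage. Ebf3 did the same, with -0.22, -0.11 and 0.39. The log2 ratio of Ebf2 between neurons and mesenchyme was -0.73, 0.24 and 0.95. From E12.5 to E13.5 Ebf3 had a log2 ratio of -0.31 in mesenchyme and 1.497 in neurons. None of these differences between groups was tested.

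Barcodes with 1000 to 3999 UMIs entered no comparison. In them 7 of 12 levels (4 members at 3 stages) had a Poisson interval wholly above the level in droplets without a cell. The counting error of the empty droplets was left out of this comparison. In them Ebf1 measured 185, 198 and 257 CPM in order of stage, against 114, 132 and 110.1 CPM in empty droplets. In the later pair of libraries Ebf2 measured 54.4 and 60.3 CPM, against 34.9 and 36.8 CPM. Ebf3 measured 73.3 and 121 CPM there, against 61.6 and 65.1 CPM. At E11.5 Ebf2 measured 20.6 against 16.7 CPM and Ebf3 35.6 against 36.0 CPM, and Ebf4 measured 1.03, 0.92 and 2.23 CPM from at most 6 UMIs.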

How the results depend on the processing

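No paired analysis was possible because each stage is 1 library and the labels give no replicate numbers that tie stages together; for the same reason no replicate could be left out. The alternatives are marked as planned, but those that change the markers vary a scoring rule that was set after the data were seen. The cause of each change was not tested. A result held if its recomputed value lay inside the counting interval of the main setting, and moved if it lay outside. Of the log2 ratios between classes 154 held, 49 moved and 1 changed sign. Of those between stages 101 held, 8 moved and 2 changed sign. Co-detection ratios held in 120 cases and moved in 6. Levels held in 173 and moved in 79. Shares of cells held in 176 and moved in 76, of which 30 were without thinning and 34 thinned to 2000 UMIs. With haemoglobin, mitochondrial and ribosomal protein genes left out of CPM, the neuron over mesenchyme log2 ratio in order of stage was 2.71, 2.29 and 2.12 for Ebf1, -0.87, 0.083 and 0.81 for Ebf2 and 0.76, 0.62 and 2.45 for Ebf3, and the Ebf1 ratio of fewer over at least 3 proneural markers at E11.5 was -0.80. With free RNA subtracted at the share estimated from the members themselves, Ebf1 in neurons over mesenchyme was 2.93, 2.55 and 2.31. Its neuronal stage ratio from E11.5 to E12.5 was then 0.071. With called doublets kept, Ebf1 in neurons over mesenchyme at E11.5 was 2.80, and the Ebf2 proneural ratio at E11.5 was -2.89. With a minimum of 6000 UMIs, neurons over mesenchyme gave 2.11 for Ebf1 at E13.5 and 0.15 and 0.76 for Ebf2 at E12.5 and E13.5, and Ebf1 in neurons from E12.5 to E13.5 changed sign to -0.073. With a mitochondrial maximum of 5%, neurons over mesenchyme gave 2.96, 2.67 and 2.08 for Ebf1, 0.56 and 1.39 for Ebf2 at E12.5 and E13.5, and 1.02 and 2.77 for Ebf3. Under that maximum the proneural ratios at E12.5 were -0.090 for Ebf1, -1.20 for Ebf2 and 0.010 for Ebf3, which changed sign. Neuronal stage ratios were 0.081 and -0.33 for Ebf1, the latter with changed sign, 1.74 for Ebf2 at the first step, and 0.61 and 1.27 for Ebf3. In mesenchyme from E12.5 to E13.5 they were -0.20 for Ebf2 and -0.47 for Ebf3. Thinned to 2000 UMIs, the co-detection ratio was 1.38 for Ebf1 with Ebf2 in E13.5 mesenchyme and 1.26, 1.30 and 1.14 for Ebf1 with Ebf3 in neurons. Without thinning it was 1.40 and 1.43 for Ebf2 with Ebf3 in mesenchyme at E11.5 and E12.5. Depth limits Ebf4, with 477 UMIs in all cells.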
